A study of Mus musculus with 8 samples.

Results

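The mouse major histocompatibility complex, called the H2 complex, was followed through 3 stages of sperm formation as a stretch of 3.4 Mb on chromosome 17, from 33900001 to 37300000 of the mm9 build. Its members were all called positions of MNase-protected DNA whose summit lay between these bounds, chosen by coordinate and by no measured value. They numbered 74452 over 8 lists, against 1404106 in the rest of chromosome 17 and 37444400 on chromosomes 1 to 19 and X. Testis cells enriched for spermatocytes (in meiosis), round spermatids (haploid) and condensing spermatids (whose histones give way to other proteins) were taken from H2A.L.2-less mice and from wild-type (WT) mice. H2A.L.2 is a testis-specific variant of histone H2A. Micrococcal nuclease (MNase) removed unprotected DNA, particles were separated on a sucrose gradient, and the protected fragments were sequenced. At the condensing stage fragments of about 130 to 170 bp (nucleosomes) and of about 40 to 80 bp (small structures) gave separate libraries, which made 8 groups of 1 library each. The strain, the age, the number of animals and the allele removed are not given in the sources used here, and position lists hold no marker with which the enrichment of a cell type could be checked.

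The H2 complex is among the most gene-dense parts of the mouse genome. Its class I genes are H2-K, H2-D and the H2-Q, H2-T and H2-M groups. Of these, H2-K and H2-D encode molecules that show peptides from inside the cell to cytotoxic T cells. Class II genes such as H2-Aa, H2-Ab1 and H2-Eb1 encode molecules that show peptides from outside to helper T cells. Between the class II genes and H2-D lies the class III region, with genes for complement components, tumour necrosis factor and heat shock proteins. Genes with roles in germ cells also lie in the complex, such as Msh5 (meiotic crossover), Hspa1l (a heat shock protein of spermatids), Bag6 (a chaperone needed in spermatogenesis) and Pou5f1 (a germline and stem cell factor). In condensing spermatids nucleosomes are dismantled, and transition proteins and then protamines take the place of histones, while particles smaller than a nucleosome appear. H2A.L.2 is known to open nucleosomes for transition proteins at that time.

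Gene names could not be placed on the positions, because the annotation at hand, RefSeq on GRCm38.p6, is of a later build than mm9. It gives only the order of genes. All 45 listed genes of antigen presentation, class III and germ cell roles were found there on chromosome 17. From the centromere side they ran from Tapbp and H2-K1 through the class II genes (H2-Oa to H2-Eb2, with Tap1, Tap2, Psmb8 and Psmb9 among them) and class III (Notch4 to Lta, with Msh5, Hspa1l and Bag6) to H2-D1, the H2-Q genes, Pou5f1, the H2-T genes and H2-M2. No sequence is shown, since none of the build of the positions was at hand. Results are therefore given by position along the complex, in 34 windows of 100 kb numbered from the centromere side.

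The lists held between 3779744 and 5385833 positions on chromosomes 1 to 19 and X. The series description gives 207000000 to 753000000 reads per sample; which library had which depth is unknown. The first percentile of summit values, a measure of the calling floor, was 96 in the H2A.L.2-less and 272 in the WT small-structure list, and between 160 and 176 in the 6 nucleosome lists. Differences between libraries have no replicate check, intervals cover counting error only, and windows and positions are not replicates. A fragment size range was given only for the condensing libraries, so that where these differ from earlier stages, stage and fragment selection cannot be told apart.

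The H2 complex held more positions per Mb than the rest of chromosome 17 in 8 of 8 lists, and most so among small structures. In spermatocytes the H2A.L.2-less list had 2303 positions per Mb in the complex, against 2019.7 in the rest of the chromosome. The WT spermatocyte list had 2775 in the complex, against 2247 in the rest. H2A.L.2-less round spermatids came closest to the rest of the chromosome, with 2086 against 1975 per Mb, a ratio of 1.06. WT round spermatids had 2963 positions per Mb in the complex, against 2301 in the rest, a ratio of 1.29. In condensing spermatids the complex stood further out, in both genotypes alike for nucleosomes. H2A.L.2-less condensing nucleosomes numbered 2292 per Mb in the complex, against 1537 in the rest, and WT ones 2229.7 against 1495, a ratio of 1.49 in each. H2A.L.2-less small structures numbered 3303 per Mb in the complex, against 1850.3 in the rest (1.79 times), and WT small structures 3945 against 2369 (1.67 times). With equal numbers of positions per list the order of the genotypes turned for small structures, with log2 ratios of 0.87 in H2A.L.2-less and 0.93 in WT cells.

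Over 6 cell preparations, with the condensing fractions of a genotype averaged, the log2 ratio of the complex over the rest was 0.38 ± 0.25 (SD, n = 6) and positive in all. A two-sided exact sign-flip permutation test gave p = 0.03125, the smallest p it can give, and 0.0521 after Benjamini-Hochberg adjustment over the 5 measures tested. The preparations share 1 genome and its mappability. The labels do not say whether stages of a genotype came from the same animals, so that independence of the 6 is assumed. Set beside 26 other stretches of chromosome 17 of the same length, the complex was not the densest in any list. In each condensing nucleosome list 1 stretch was denser, and in each small-structure list 2 were. In spermatocytes 9 were denser in the H2A.L.2-less and 5 in the WT list, and in round spermatids 10 in the H2A.L.2-less and 5 in the WT list.

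**Figure D1:**
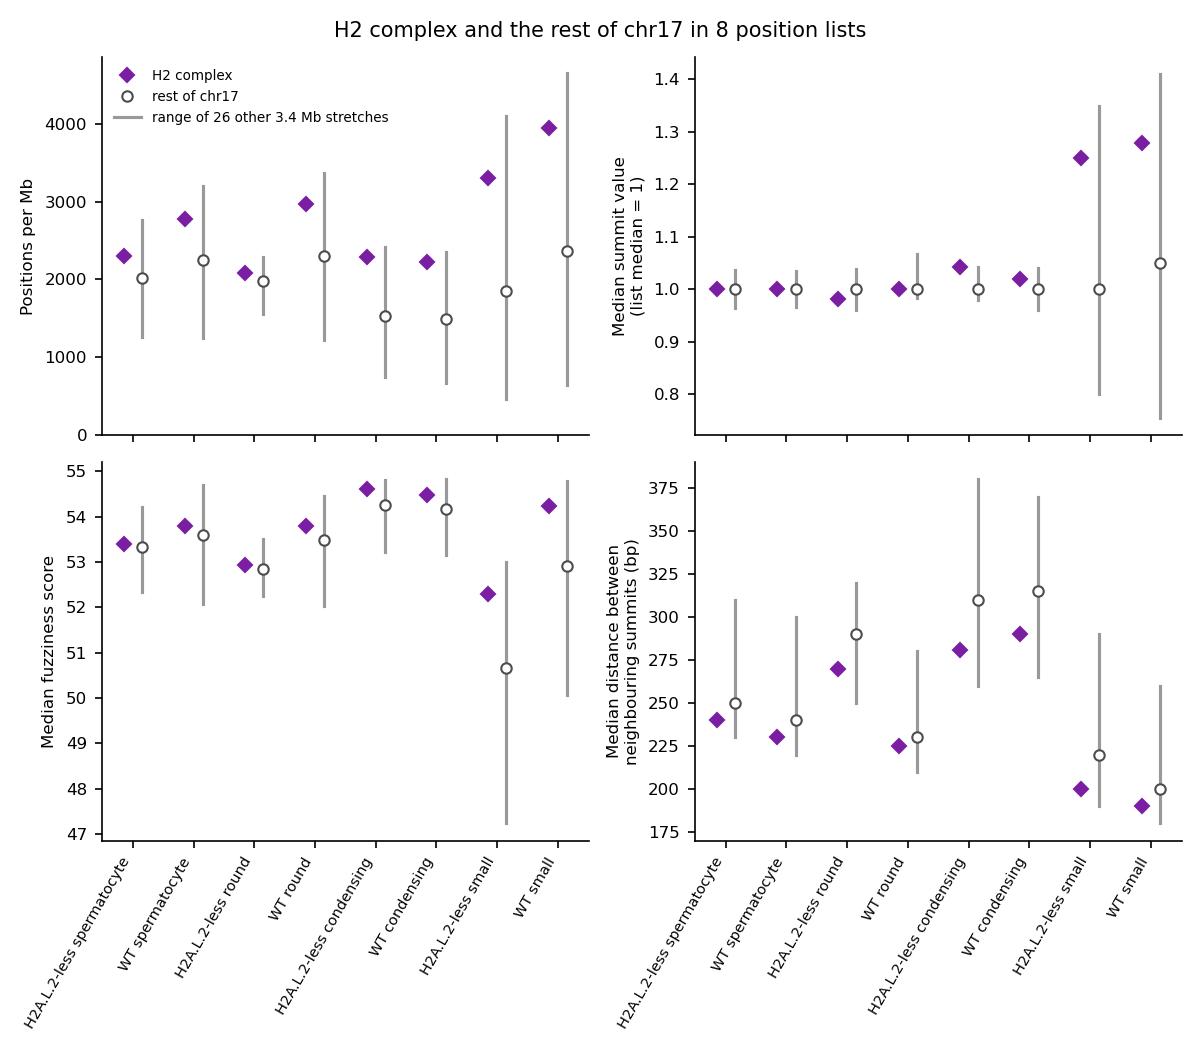
Position density per Mb, median summit value relative to the list median, median fuzziness score and median distance between neighbouring summits (bp) in each of the 8 lists. Purple diamonds stand for the H2 complex, open circles for the rest of chromosome 17, and grey lines for the range over 26 other stretches of 3.4 Mb; the complex lies above the rest in density and fuzziness and below it in spacing in 8 of 8 lists.

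The complex also had few long stretches without a called summit. The longest run of bases between neighbouring summits of all lists together was 1925 bp in the complex (from 37273716 to 37275641), against 55150 bp in the rest of chromosome 17. Gaps over 1000 bp numbered 14, or 4.12 per Mb, in the complex, and 54.6 per Mb in the rest. Long gaps become rarer as density rises, so they are not a measure independent of the higher density given above. The rest is also far longer, so its single longest gap is not a like measure. Other stretches of equal length are not set beside the complex here. The longest 3 gaps all lay in the last window, at the telomere side.

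The summit value is the coverage height of a position. Its median was higher in the complex than in the rest at the condensing stage, by more among small structures than among nucleosomes. Relative to the median of its own list, the median small-structure summit was 1.25 in the complex and 1.0 in the rest in H2A.L.2-less cells, and 1.28 and 1.05 in WT cells. Of the 26 other stretches, 2 in the H2A.L.2-less and 3 in the WT list had a higher median. Condensing nucleosomes had medians of 1.04 in the complex and 1.0 in the rest in H2A.L.2-less cells, and of 1.02 and 1.0 in WT cells. Of the stretches, 0 in the H2A.L.2-less and 1 in the WT list lay above the complex there. Of the small structures of the complex, 19.7% (95% Wilson interval 18.97% to 20.4%) lay above the 90th percentile of the H2A.L.2-less list, against 10.9% in the rest. In WT cells the share was 21.7% (21.05% to 22.4%) in the complex, against 11.4% in the rest. Among condensing nucleosomes this share was 11.9% in the complex and 9.11% in the rest in H2A.L.2-less cells, and 11.03% and 8.54% in WT cells. With means in place of medians, their log2 ratio of the complex over the rest turned to -0.025 in H2A.L.2-less and -0.020 in WT cells. Summits over 2 times the list median made up 0.58% in the complex and 1.0% in the rest in H2A.L.2-less cells. In WT cells they made up 0.75% and 0.95%. Summit values come in steps of 4, on list medians of 192 and 200 for condensing nucleosomes. The 4 earlier lists had medians between 0.980 and 1.0 in the complex and 1.0 in the rest. Over the 6 preparations the log2 ratio of the medians was 0.053 ± 0.095 (SD, n = 6; exact sign-flip permutation test, p = 0.50, adjusted 0.50), so that no difference across preparations was called.

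Positions of the complex had higher fuzziness scores, the caller's measure of the scatter of fragments at a position, in 8 of 8 lists. The median score of H2A.L.2-less small structures was 52.3 in the complex and 50.7 in the rest, and that of WT small structures 54.2 and 52.9. In nucleosome lists the complex stood above the rest by between 0.073 (H2A.L.2-less spermatocytes) and 0.36 (H2A.L.2-less condensing spermatids). The mean difference over preparations was 0.42 ± 0.39 (SD, n = 6; exact sign-flip permutation test, p = 0.03125, adjusted 0.0521). Without window 17, the densest of the complex, 5 of 6 preparations were higher and this p was 0.0625. Among the 26 other stretches the complex was in the middle range at the earlier stages. In spermatocytes 12 stretches of the H2A.L.2-less list had a higher median score, and 10 of the WT list. In round spermatids 11 did so without H2A.L.2 and 8 in the WT list. Among condensing nucleosomes 4 did so in the H2A.L.2-less and 5 in the WT list, and among small structures 3 in each.

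Neighbouring summits lay closer together in the complex than in the rest in 8 of 8 lists. Distances between neighbours shrink as density rises, so spacing is not a measure independent of the higher density given above. The median distance was 240 bp in the complex and 250 bp in the rest in H2A.L.2-less spermatocytes, and 230 and 240 bp in WT spermatocytes. In round spermatids it was 270 bp in the complex and 290 bp in the rest in H2A.L.2-less cells, against 225 and 230 bp in WT cells. The widest differences were those of condensing nucleosomes, with 281 bp in the complex and 310 bp in the rest in H2A.L.2-less cells, and 290 and 315 bp in WT cells. Small structures had medians of 200 bp in the complex and 220 bp in the rest in H2A.L.2-less cells, and 190 and 200 bp in WT cells. The mean difference over preparations was -14.5 ± 7.35 bp (SD, n = 6; exact sign-flip permutation test, p = 0.03125, adjusted 0.0521), and -8.75 bp without window 17 (lower in 4 of 6 preparations, p = 0.125, adjusted 0.156). Most of these medians are multiples of 10 bp, so that the smaller differences are 1 such step.

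The regular ladder of nucleosomes in spermatocytes and round spermatids ran through the complex as through the rest of the chromosome. The second peak of the distance curve over the trough before it, the regularity, was 1.86 in the complex and 1.86 in the rest in H2A.L.2-less spermatocytes. In WT spermatocytes it was 1.66 in the complex and 1.64 in the rest. Round spermatids had 2.05 in the complex and 2.07 in the rest in H2A.L.2-less cells, and 1.79 and 1.77 in WT cells. The ladder was nearly lost in condensing nucleosomes of the complex. Their regularity was 1.12 in H2A.L.2-less and 1.104 in WT cells, within the range of the 26 other stretches of equal length (1.01 to 1.32 and 1.01 to 1.35). The larger rest of the chromosome gave 1.03 and 1.02. Over preparations the log2 ratio of the complex over the rest was 0.025 ± 0.034 (SD, n = 6; exact sign-flip permutation test, p = 0.125, adjusted 0.156), and it turned negative with the autosomes in place of the rest of chromosome 17 (-0.0018).

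**Figure D2:**
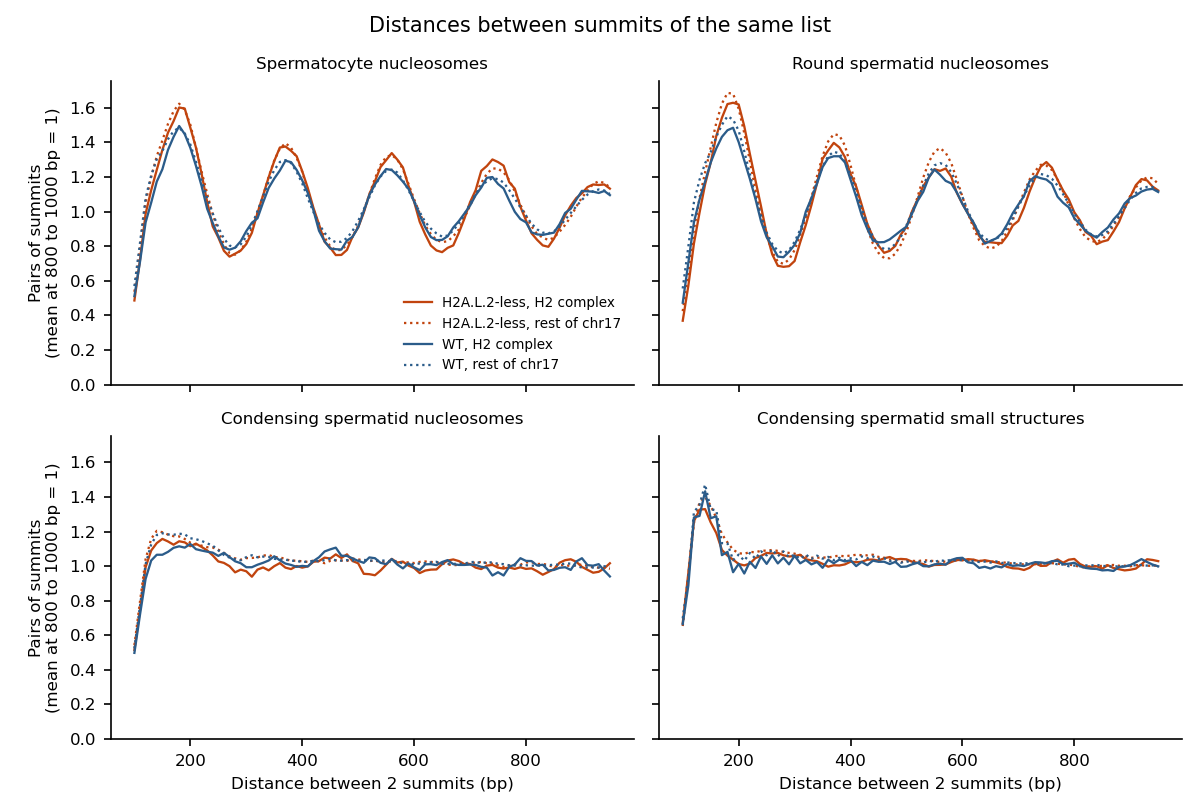
Pairs of summits of the same list by their distance (bp), relative to the mean from 800 to 1000 bp, in 4 panels by stage and fraction. Solid lines stand for the H2 complex and dotted lines for the rest of chromosome 17, in orange for H2A.L.2-less and in blue for WT cells; in spermatocytes and round spermatids the peaks of both recur at the same distances, and in the condensing panels they are nearly absent.

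Within the complex, the positions were spread unevenly, and the unevenness differed between fractions. Window 17 (35500001 to 35600000) was the fullest, with a mean of 1.95 times the median window of chromosome 17 over the 8 lists. Its positions numbered 347 in H2A.L.2-less spermatocytes and 380 in WT spermatocytes, 339 and 384 in round spermatids, and 383 and 369 among condensing nucleosomes, the highest count of the complex in each of these 6 lists. Its nucleosome summits were also higher, with medians between 1.14 and 1.28 times the list median. Its small structures were not the most numerous, with 363 in H2A.L.2-less and 418 in WT cells. Window 10 (34800001 to 34900000) had a mean of 1.74 and window 4 (34200001 to 34300000) one of 1.60. The emptiest were window 34 (37200001 to 37300000) with 0.958, window 29 (36700001 to 36800000) with 1.11 and window 31 (36900001 to 37000000) with 1.17, all at the telomere side.

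Small structures divided the complex along its length. In H2A.L.2-less cells they ran from 109 per window (window 29) to 484 (window 9, 34700001 to 34800000), with a median of 364, against a median of 156 in the rest of the chromosome. In WT cells they ran from 175 (window 29) to 535 (window 9), with a median of 428, against 226 in the rest. The richest windows lay on the centromere side, and windows 18 to 24 still held 413 to 484 in WT cells. Windows 26 to 31 and window 34 were the poorest of the complex, with 175 to 280 in WT cells, near the median of the rest of the chromosome. The 17 windows from 33900001 to 35600000 held 6562 small structures in H2A.L.2-less and 7599 in WT cells, and the 17 windows from 35600001 to 37300000 held 4668 and 5815. Heights followed the same course. The median small-structure summit was 1.35 times the list median in H2A.L.2-less and 1.40 times in WT cells in the 17 centromere-side windows, and 1.1 and 1.15 times in the 17 telomere-side windows. Condensing nucleosomes were less uneven, with 161 to 383 per window in H2A.L.2-less and 157 to 369 in WT cells.

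**Figure D3:**
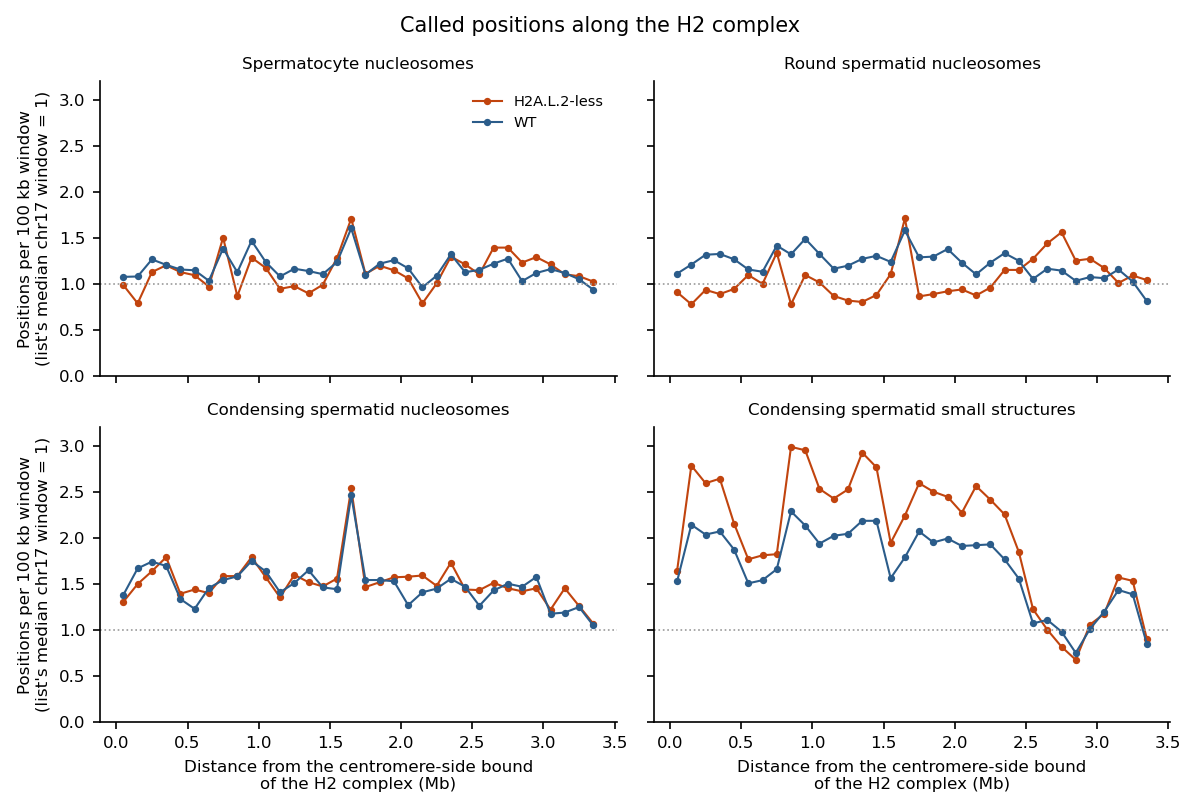
Positions per 100 kb window along the H2 complex, relative to the median window of chromosome 17 in the same list (dotted line at 1), by distance from the centromere-side bound in Mb. Orange stands for H2A.L.2-less and blue for WT cells. Small structures are more numerous over windows 1 to 25 than further on, and the round spermatid lines part over most of these windows. The peak at window 17 is seen in the 6 nucleosome lists.

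H2A.L.2-less round spermatids held fewer positions than WT round spermatids over most of the complex. The median log2 ratio (H2A.L.2-less over WT, each relative to its list's positions on the 19 autosomes) was -0.43 over the 34 windows, from -0.88 to 0.33. In the rest of chromosome 17 the median was 0.012. Lower by at least 0.5 were 15 of the 34 windows and higher by that much none, against 9.84% of the other windows of chromosome 17 that were lower and 17.0% that were higher, 26.8% in all. As a whole the complex stood at -0.29 relative to the rest of the chromosome, against an SD of 0.31 over the 26 other stretches, of which 3 were lower. The genotype difference was thus within the variation along the chromosome.

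The windows with the lowest round spermatid ratios were rich in small structures. Window 9 held 154 positions without H2A.L.2 and 321 in WT cells, a log2 ratio of -0.88. Window 14 (35200001 to 35300000) held 159 and 309 (-0.78), and window 2 (34000001 to 34100000) held 154 and 294 (-0.75). The highest ratios lay among the telomere-side windows with the fewest small structures of the complex. Window 28 (36600001 to 36700000) held 309 positions without H2A.L.2 and 278 in WT cells (0.33), window 34 held 206 and 197 (0.24), and window 27 (36500001 to 36600000) held 285 and 283 (0.19). All 17 centromere-side windows had a ratio below 0, of which 11 were lower by at least 0.5. Of the 17 telomere-side windows 7 lay above 0 (windows 26 to 31 and window 34). Lower by at least 0.5 were 4 of them (windows 18 to 21), so the change did not fall at the midpoint of the complex. Window 17, the fullest, stood at -0.00065, with 418 WT small structures.

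For the round spermatid ratio, the complex followed the relation to small structures seen over the rest of the chromosome. The number of WT small structures per window and the round spermatid ratio had a Pearson correlation of -0.94 (Spearman -0.94) over the 34 windows of the complex, and of -0.94 (Spearman -0.94) over 884 windows of the rest. Windows share libraries, depth and base composition with their neighbours, and no test was made. Chromosome 17 windows with at least 50 WT small structures were set in 4 classes of about equal size by that number, and poorer windows were left out. In the richest class, of 372 or more per window, 20 windows of the complex had a median round spermatid ratio of -0.59, against -0.46 for 199 windows of the rest, whose middle range ran from -0.63 to -0.34. In the class from 252 to 372 per window 9 windows of the complex had -0.24, against -0.18 for 206 windows of the rest. In the class from 110.2 to 252 per window 5 windows of the complex had 0.16, against 0.14 for 210 windows of the rest. No window of the complex fell in the poorest class, where the rest had a median of 0.51. The Pearson correlation of H2A.L.2-less and WT round spermatid counts was 0.047 (Spearman -0.16) over 34 windows of the complex and 0.70 (Spearman 0.70) over 889 windows of the rest. For spermatocytes, condensing nucleosomes and small structures it was 0.77, 0.89 and 0.99 in the complex, and 0.95, 0.98 and 0.99 in the rest. Windows of the complex covered a narrower range of counts than those of the rest in every list. The cause of the low round spermatid correlation was not tested.

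**Figure D4:**
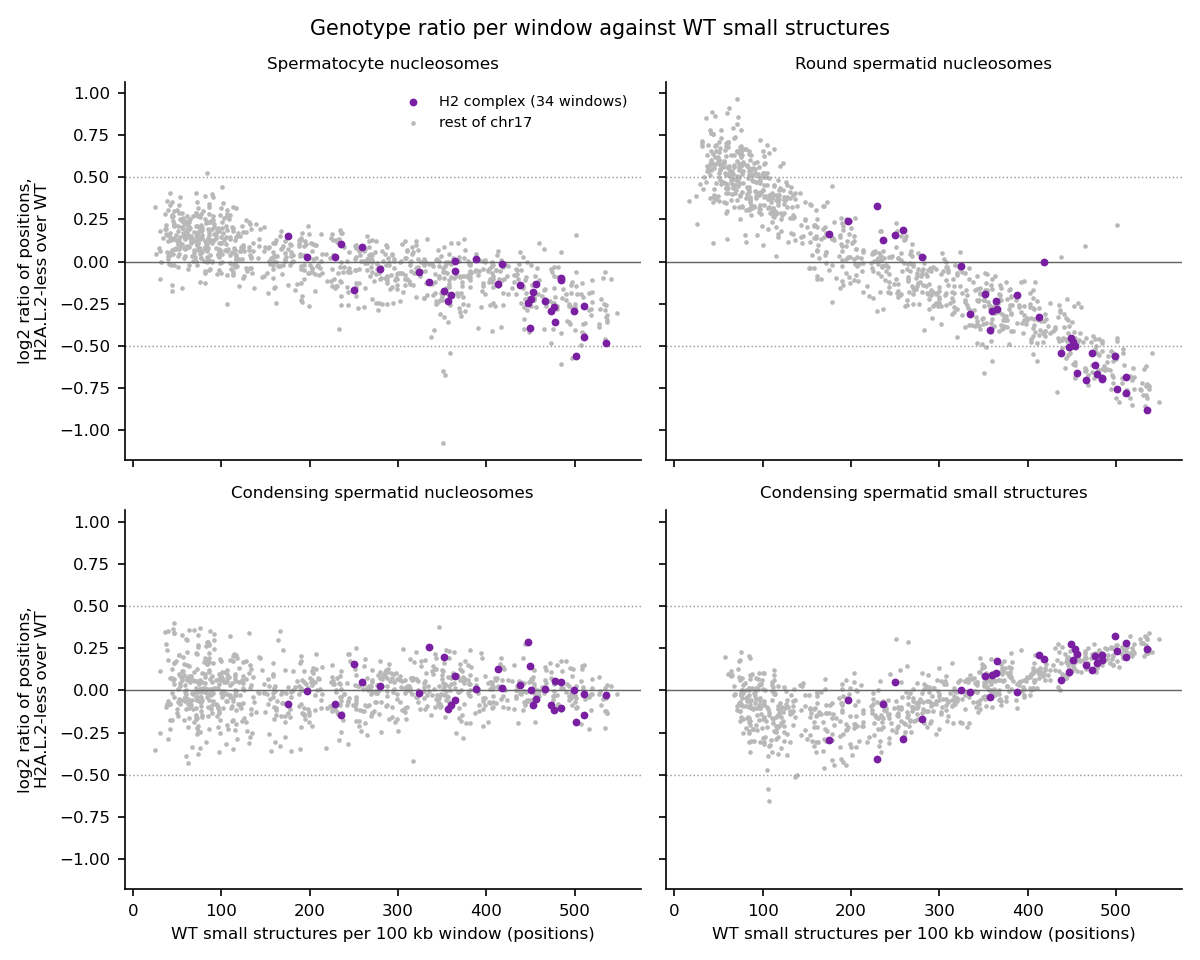
log2 ratio of positions per 100 kb window, H2A.L.2-less over WT, against the number of WT small structures in the window, in 4 panels by stage and fraction. Purple points stand for the 34 windows of the H2 complex and grey points for the rest of chromosome 17, with dotted lines at 0.5 above and below 0; the round spermatid panel slopes downward, and the purple points lie in the cloud of grey points.

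The course in spermatocytes was similar and weaker. There the median ratio of the complex was -0.15, from -0.56 to 0.15, with 27 of 34 windows below 0 and 1 lower by at least 0.5, against 0.679% lower, 0.113% higher and 0.792% in either direction among the other windows. The lowest were windows 2 (160 positions without H2A.L.2 and 256 in WT cells, -0.56), 9 (176 and 267, -0.48) and 14 (182 and 270, -0.45), the same windows as in round spermatids. The highest were windows 29 (0.15), 30 (0.10) and 27 (0.090). Condensing nucleosomes did not follow it. Their median ratio was -0.0016, from -0.18 to 0.29, and 0 of 34 windows passed 0.5, with a background of 0% in the rest. The lowest of them were windows 2 (226 positions without H2A.L.2 and 250 in WT cells, -0.18), 14 (-0.15) and 30 (-0.15), and the highest windows 21 (238 and 190, 0.29), 32 (0.26) and 6 (0.20).

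Small structures had the opposite course along the complex, with the higher ratios in the windows richest in them. Over the classes of WT small structures, from the second-lowest quartile (5 windows) through the next (9 windows) to the richest (20 windows), the complex had median log2 ratios of -0.078, 0.0010 and 0.20, and the rest -0.14, -0.039 and 0.16. The WT counts that form the classes also enter the ratio, so these values are a description only. The median ratio was 0.14 over the complex, from -0.41 to 0.32, with 25 of 34 windows above 0 and none past 0.5 in either direction, against 0.530% of the other windows lower and 0% higher. The highest were windows 10 (478 small structures in H2A.L.2-less and 499 in WT cells, 0.32), 14 (474 and 511, 0.28) and 22 (415 and 449, 0.27). The lowest were windows 28 (132 and 229, -0.41), 29 (109 and 175, -0.30) and 27 (162 and 259, -0.29). With equal numbers of positions per list the median turned to -0.057, so no direction is read from it.

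Between successive stages the windows of the complex were compared within each genotype, relative to the autosomes. From spermatocytes to round spermatids the median log2 ratio of the windows was -0.14 in H2A.L.2-less and 0.049 in WT cells, with none past 0.5, where 4.53% of the other windows were higher and 1.25% lower in H2A.L.2-less cells, and 0.226% and 0% in WT cells. From round spermatids to condensing nucleosomes it was 0.47 in H2A.L.2-less cells, with 16 of 34 windows higher by at least 0.5 and none lower, against 8.32% higher and 22.9% lower in the rest. In WT cells that step gave 0.075 and 0 of 34 windows past 0.5, against 0.696% higher and 7.31% lower in the rest. These steps share the round spermatid lists, and the second compares libraries of different fragment selection. Small structures over condensing nucleosomes had a median of 0.49 in H2A.L.2-less cells, with 17 windows higher and 3 lower (27.1% and 24.7% in the rest). In WT cells it was 0.40, with 12 higher and 1 lower (20.1% and 25.7% in the rest).

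Matches between lists asked which positions recurred. Summits counted as matched with a summit of the other list at most 40 bp away, and chance was the share after moving the other list by 5000 bp. Of the H2A.L.2-less summits of the complex, the share matched in WT was 58.1% for spermatocytes, 55.1% for round spermatids, 33.98% for condensing nucleosomes and 78.1% for small structures. In the rest of the chromosome these shares were 56.1%, 49.8%, 29.4% and 76.2%, each below that of the complex. Of the WT summits of the complex, 48.2% (95% Wilson interval 47.2% to 49.2%), 38.8% (37.9% to 39.8%), 34.9% (33.9% to 36.0%) and 65.4% (64.6% to 66.2%) were matched in the H2A.L.2-less lists in the same order. In the rest of the chromosome these WT shares were 50.4%, 42.7%, 30.2% and 59.5%. Of WT summits the complex thus had the lower share at the earlier stages and the higher share at the condensing stage.

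The ratio of the matched share to chance was lower in the complex than in the rest in all 4 genotype pairs. WT summits of the complex were matched 2.34 times chance for spermatocytes, 2.09 times for round spermatids, 1.67 times for condensing nucleosomes and 2.03 times for small structures, against 2.51, 2.27, 1.86 and 2.42 times in the rest. Chance itself was higher in the complex at the condensing stage, at 20.9% against 16.2% for nucleosomes and at 32.2% against 24.6% for small structures. It was 20.5% against 20.1% for spermatocytes and 18.5% against 18.8% for round spermatids. A ratio over chance falls as chance rises, so no shortfall of matches beyond chance is read for the condensing pairs. Of the 26 other stretches, 16 for spermatocytes, 17 for round spermatids, 22 for condensing nucleosomes and 22 for small structures had a higher ratio than the complex. High summits recurred most, in the complex as in the rest of the chromosome. Of the WT summits of the complex above the 90th percentile of their list, a match was found for 73.5% at the spermatocyte stage, 67.4% for round spermatids, 53.3% for condensing nucleosomes and 81.1% for small structures. The rest had 74.5%, 66.2%, 51.1% and 83.8% in the same order. Of those at or below the 10th percentile, 30.2%, 23.5%, 26.9% and 22.4% were matched in the complex, against 33.1%, 30.3%, 22.9% and 23.8% in the rest.

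Nucleosomes of the complex were matched across stages more often at the step from spermatocyte to round spermatid than at the step to condensing nucleosomes. In H2A.L.2-less cells 41.2% of spermatocyte summits recurred in round spermatids (2.15 times chance; 2.34 in the rest), and 30.8% of round spermatid summits in condensing nucleosomes (1.47 times; 1.64 in the rest). In WT cells the steps gave 55.7% (2.08 times; 2.38 in the rest) and 28.8% (1.40 times; 1.54 in the rest). Spermatocyte summits found again at both later stages made up 14.6% of those of the complex in H2A.L.2-less cells, against 12.3% in the rest, and 17.7% in WT cells, against 14.4% in the rest. As a ratio over chance the order was the other way, with 3.83 times in the complex and 4.11 in the rest in H2A.L.2-less cells. In WT cells it was 3.38 and 3.72 times. Chance was higher in the complex, at 3.82% against 2.99% in H2A.L.2-less and 5.24% against 3.88% in WT cells. Such a ratio falls as chance rises, so lower recurrence beyond chance is not read from it. WT spermatocyte summits with a match in all 6 nucleosome lists numbered 308 in the complex, or 90.6 per Mb, against 54.5 per Mb in the rest. Counts per Mb also carry the higher density of the complex. As shares of the WT spermatocyte summits these were 3.26% and 2.42%, or 51.3 times chance in the complex and 50.4 times in the rest. With a match in all 8 lists there were 110, or 32.4 per Mb, against 15.2 per Mb in the rest. The shares were 1.17% and 0.68%, or 110 and 90.2 times chance. The chance share was only 0.011% in the complex and 0.0075% in the rest, so these last ratios are imprecise.

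Small structures of the complex were set against nucleosomes of the same genotype. In H2A.L.2-less cells 25.5% lay within 40 bp of a condensing nucleosome summit (1.24 times chance), 21.2% of a round spermatid summit (1.22 times) and 26.6% of a spermatocyte summit (1.39 times). In WT cells the shares were 27.2% (1.35 times), 39.3% (1.46 times) and 35.8% (1.49 times) in the same order. Small structures of WT cells thus lay on round spermatid nucleosomes of the same genotype more often than those of H2A.L.2-less cells did, by shares and relative to chance. The rest of the chromosome had 1.28 times chance in H2A.L.2-less and 1.64 times in WT cells for that pair. The round spermatid list was also the shorter in H2A.L.2-less cells, with 7093 positions in the complex, against 10075 in WT cells.

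**Figure D5:**
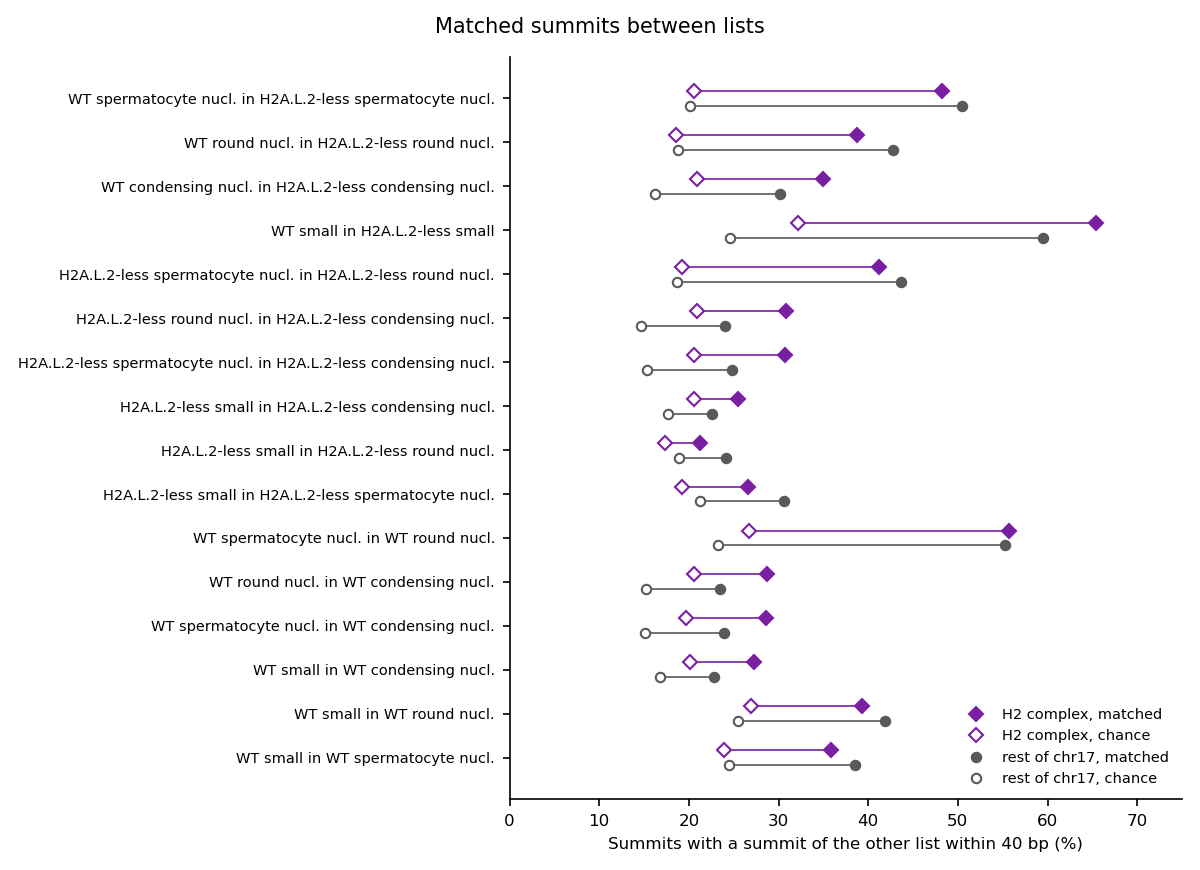
Share of summits (%) with a summit of another list within 40 bp, for pairs of genotypes, stages and fractions. Filled symbols stand for the measured share and open symbols for chance (the other list moved by 5000 bp), purple diamonds for the H2 complex and grey circles for the rest of chromosome 17; filled symbols lie right of the open ones in all rows, and chance is higher in the complex for pairs matched in condensing lists.

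A few summits of the complex were far higher than the others, at 3 sites. The site at 36621831 in window 28 was the highest of the complex in all 6 nucleosome lists, with values of 72.6 times the list median in H2A.L.2-less and 84.5 times in WT spermatocytes, 67.5 and 46.4 times in round spermatids and 72.96 and 68.9 times in condensing nucleosomes. Its small structures stood at 9.6 and 13.6 times. The site at 35419351 in window 16 was high in all 8 lists, between 17.1 times (H2A.L.2-less condensing nucleosomes) and 39.7 times (WT small structures). The site at 36368431 in window 25 was high only at the condensing stage among these lists. It stood at 1.57 times the list median in H2A.L.2-less and 2.29 times in WT spermatocytes, and at 2.0 and 2.27 times in round spermatids. Among condensing nucleosomes it stood at 22.3 times in H2A.L.2-less and 18.9 times in WT cells, and among small structures at 97.2 and 67.8 times, the highest small-structure summit of the complex in both genotypes. Whether reads from repeated sequence were kept is not given in the sources used here. The rest of chromosome 17 held higher summits in every list, up to 1268 times the list median among H2A.L.2-less small structures.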

How the data were processed

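MNase-protected DNA was sequenced from enriched testis cells, 1 library per stage, genotype and fragment class, grouped by the sample titles. Bowtie2 2.2.9, deepTools 2.2.4 and mm9 are named in the submitters' processing notes, and 3 sequencing runs per sample were merged after alignment, per the series description. For the caller's version and thresholds, and for the handling of duplicate or multiply aligned reads, nothing is given in the sources used here. Positions were deposited with start, end, summit, summit value and fuzziness score, per the file headers. The summit value, as deposited by the authors, is a coverage signal in whole multiples of 4, with no common scale between lists, and was used relative to the list median. The fuzziness score is the authors' own. All deposited positions are 140 bp wide.

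Density was counted over 100 kb windows holding a position in any list (34 in the complex, 889 in the rest). Spacing used neighbouring summits up to 1000 bp apart. Regularity was the peak of the distance curve between 330 and 450 bp over its lowest point between 230 and 330 bp, in 10 bp bins smoothed over 5. Window ratios needed at least 50 positions in both lists. Summits were matched within 40 bp in 20 pairs of lists. The complex was compared with the rest of chromosome 17 by two-sided exact sign-flip permutation tests over 6 preparations, adjusted over 5 measures. Genotypes and stages were not tested, with 1 library each. Alternatives changed the reference, the bounds, the positions used, the statistic, the match distance, the chance shift, the window size and the fold. The named windows are the 3 fullest and 3 emptiest and, per genotype pair, the 3 highest and 3 lowest ratios; the named summits are the highest of each list and the sites over 10 times the list median, the latter chosen after their values were seen. The complex and the measures were chosen with earlier results of these data known. Promoter values were not computed, since no mm9 annotation was at hand. Analyses used Python 3.11.15, numpy 2.4.6, pandas 2.3.3, scipy 1.17.1 and matplotlib 3.10.9. The matching was tested on simulated data: of 8000 simulated summits 60.7% were made to match and 60.7% were recovered.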

Additional observations from a re-analysis of the deposited data

Results flagged for a closer look

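The genotype difference in summit value of the H2 complex, relative to the rest of chromosome 17, ran in opposite directions at 2 stages, each time by more than the SD over 26 other stretches. In round spermatids the log2 difference (H2A.L.2-less minus WT) was -0.029, with an SD of 0.027 over the 26 stretches, of which 6 were lower. In condensing nucleosomes it was 0.030, with an SD of 0.015, and 2 of the stretches were higher. Summit values come in steps of 4 on list medians near 200, so that each is about 1 step. The pattern depended on the setting. In round spermatids the difference was 0.021 with equal numbers of positions, 0.012 with means in place of medians and 0 when only positions at or above the list median were kept. In condensing nucleosomes it was -0.0059 with means and 0.0018 when only positions at or above the list median were kept. The difference between the stages was not tested, and each group has 1 library.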

How the results depend on the processing

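No paired analysis of genotypes or stages was possible because every group has 1 library and the labels give no replicate numbers. Across the settings tried, the means over preparations of density and fuzziness stayed above the rest of chromosome 17, and that of spacing below it. Single lists did not all follow: for positions at or above the list median, the fuzziness difference was -0.06 in H2A.L.2-less round spermatids and the spacing difference 0 bp in H2A.L.2-less spermatocytes. Their p was 0.03125 except for positions at or above the list median (fuzziness and spacing 0.0625) and without window 17, a setting chosen after seeing the data (fuzziness 0.0625, spacing 0.125). No adjusted p of the 5 measures was below 0.05. The regularity difference of 0.025 turned to -0.0018 against the autosomes and to -0.0042 for positions at or above the median; without window 17 it was 0.038 (exact permutation test, p = 0.03125, adjusted 0.0781). The cause was not tested. The matched share over chance, complex over rest, was 0.934 for spermatocytes, 0.92 for round spermatids, 0.899 for condensing nucleosomes and 0.84 for small structures. In spermatocytes it was 0.915 with a chance shift of 10000 bp, 0.911 for positions at or above the median and 0.899 against the autosomes. In round spermatids it was 0.888 against the autosomes. Among small structures it was 0.823 with the longer shift, 0.823 for the higher positions and 0.786 against the autosomes. Windows past a log2 ratio of 0.5 numbered 1 in spermatocytes (5 at 0.3, 3 of 68 with 50 kb and 0 of 17 with 200 kb windows) and 15 in round spermatids, all lower (20 lower and 1 higher at 0.3, 13 centred on the median chromosome 17 window, 24 of 68 with 50 kb and 6 of 17 with 200 kb windows). They numbered 0 in condensing nucleosomes (1 of 68 with 50 kb windows) and 0 among small structures (2 at 0.3, 1 of 68 with 50 kb windows). Weak positions below a list's calling floor are missing, and the floor differs most between the small-structure lists.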
